A study of Mus musculus with 40 samples.

Results

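Id2, Id3, Tcf3 and Tcf12 encode opposing sides of a single switch in lymphocytes: Id2 and Id3 are inhibitors of DNA binding, and Tcf3 (which encodes E2A) and Tcf12 (which encodes HEB) are E proteins. The 4 genes were taken by symbol from the 21950 genes of the deposited expression table, and each was matched to 1 gene of the table. The rule that selects them uses their symbols and no measured value, but the genes were proposed with earlier results of these data known. All 4 passed the filter on low values in every fit, which asked for 10 normalized counts or more in 3 or more libraries.

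E proteins are helix-loop-helix transcription factors that bind the E-box, a short DNA motif, as dimers. Id proteins carry the same dimerization region but no DNA-binding region, so an E protein held by an Id protein cannot bind its sites, and the ratio between them sets how much E protein can act. In T cells this balance is known for its roles in thymocyte development, in quiescence and in the maintenance of regulatory T cells (Tregs), and Id3 is known to respond to T cell receptor and TGF-β signals. The data here are transcript levels in bulk samples, in which fewer cells of a type and less RNA per cell cannot be told apart, and protein levels were not measured in these libraries.

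The RNA-seq part of the study has 24 libraries in 8 groups of 3, all from mouse spleen CD4+ T cells, and all were made by SMART-seq2, a full-length cDNA method that does not keep strand. Conventional T cells (Tconv) and thymus-derived Tregs (tTreg, labelled nTreg) were sorted from Foxp3-GFP reporter mice on the C57BL/6 background, aged 2 to 4 months, and were profiled resting and activated. Induced Tregs (iTreg) came from naive CD4+ Foxp3-negative CD62Lhi CD44lo cells of 6-week-old mice. These were cultured for 4 days on plate-bound anti-CD3 (0.5 µg/ml) and anti-CD28 (1 µg/ml) with human TGF-β (2 ng/ml) and IL-2, sorted on a Foxp3-GFP or Foxp3-RFP reporter, and rested for 1 day with IL-2. They were profiled resting, restimulated with anti-CD3 and anti-CD28, and restimulated with either of 2 inhibitors of the calcium pathway. The group labelled ORAIinh is called here the ORAI inhibitor group. ORAI is the plasma membrane channel of store-operated calcium entry, and the design text names CM-4620 as the inhibitor used besides cyclosporine A (CsA), which blocks calcineurin and with it the transcription factor NFAT. The inhibitor doses and the length of activation or restimulation before RNA was taken are not given in the sources used here. iTreg therefore differ from the other cells in mouse age, culture and TGF-β exposure as well as in cell type, and these cannot be told apart. The labels do not say whether replicates came from separate mice or cultures, so the p-values measure a spread between libraries that may be technical. Each fit took 1 estimate of this spread per gene over all its groups, and not from the groups compared alone. The 16 ATAC-seq and CUT&Tag samples were not analysed here.

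Libraries held 5256800 to 15685234 reads on genes (median 10801942.5), and tTreg were the shallowest (medians 7582032 resting and 7131717 activated). The members were covered by 75 to 4063 reads per library. All 5 T cell markers had at least 3 reads in every library. Foxp3 averaged 10.4 normalized counts in resting Tconv, 7537 in resting tTreg and 1280.0 in resting iTreg. All 4 Treg markers summed to 458 to 478 in resting Tconv and 5116 to 5357 in activated Tconv. Their sum was 20635 to 28206 in tTreg libraries and 12269 to 17057 in iTreg libraries. They did not share a direction: in resting iTreg against resting tTreg 1 was called higher and 2 lower, where 63.4% of all genes were called. Markers of other cell types summed to at most 44.3 normalized counts with 3 exceptions: the 2 CD8 genes (at most 236), Eomes among the 3 NK cell genes in activated Tconv (sum 281 to 308), and the 5 B cell genes in tTreg (128 to 136 resting, 89.0 to 135 activated, nearly all from Cd79b, with Ms4a1 and Pax5 at 0). The part of Cd79b-expressing cells or of depth in the tTreg results below was not tested.

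Id2 lies at chr12:25093799-25097140 (minus strand), Id3 at chr4:136143497-136145755 (plus strand), Tcf3 at chr10:80409514-80433647 (minus strand) and Tcf12 at chr9:71842688-72111871 (minus strand), in GRCm38 coordinates. None of their exon bases overlaps an exon of another annotated gene at the same place (0% for each of the 4). Similar sequences elsewhere in the genome were not searched for. Because E proteins act through the E-box CANNTG, and because the core of NFAT sites is GGAAA, each RefSeq start-site window (250 bases before to 50 after the start, GRCm38.p6) was searched for these letters on both strands. CANNTG is present in 72.3% of all 32851 windows and GGAAA in 61.3%, so most windows of this length hold a match. Capitals below mark the matched letters. The stretches shown are the sole match of each motif in the windows of the 2 Id genes, whose levels ranged most, and of Tcf3, the E protein gene that rose on Tconv activation.
Id2 (CANNTG, chr12:25096273-25096298, minus strand): tttgccacccCAGCTGggctctcgcc
Id3 (GGAAA on the opposite strand, chr4:136143839-136143863, plus strand): aggtgtctctTTTCCtccctctcta
Tcf3 (CANNTG, chr10:80433674-80433699, minus strand): tgggcgtggtCACTTGggggcgtggc
The Id2 match begins 196 bases before the start site, the Tcf3 match 54 bases before it, and the Id3 match at base 28 after it. The Id2 and Id3 stretches lie within the annotated genes as given above, and the Tcf3 stretch lies outside its gene. For Id2 this is because the GENCODE gene begins upstream of the RefSeq start site, and for Id3 because the match follows the start site. The Id3 window held no CANNTG, and the Id2 and Tcf3 windows held no GGAAA. Tcf12, which has 3 annotated start-site windows, held 4 CANNTG and 2 GGAAA matches in all. These matches describe the letters in the windows and are not evidence of binding.

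The 2 Id genes spanned far wider ranges than the 2 E protein genes, and they were highest in different cells. Between the lowest and the highest group mean, Id2 differed by 30.4-fold (resting tTreg to iTreg with CsA), Id3 by 13.2-fold (restimulated iTreg to resting tTreg), Tcf12 by 3.84-fold (iTreg with CsA to resting tTreg) and Tcf3 by 2.62-fold (resting tTreg to resting iTreg). Values are normalized counts, that is, reads divided by a size factor for each library. Log2 fold changes are differences of mean log2(normalized count + 1), and a gene is called where the limma adjusted p is below 0.05 and the absolute log2 fold change above 0.5.

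**Figure D1:**
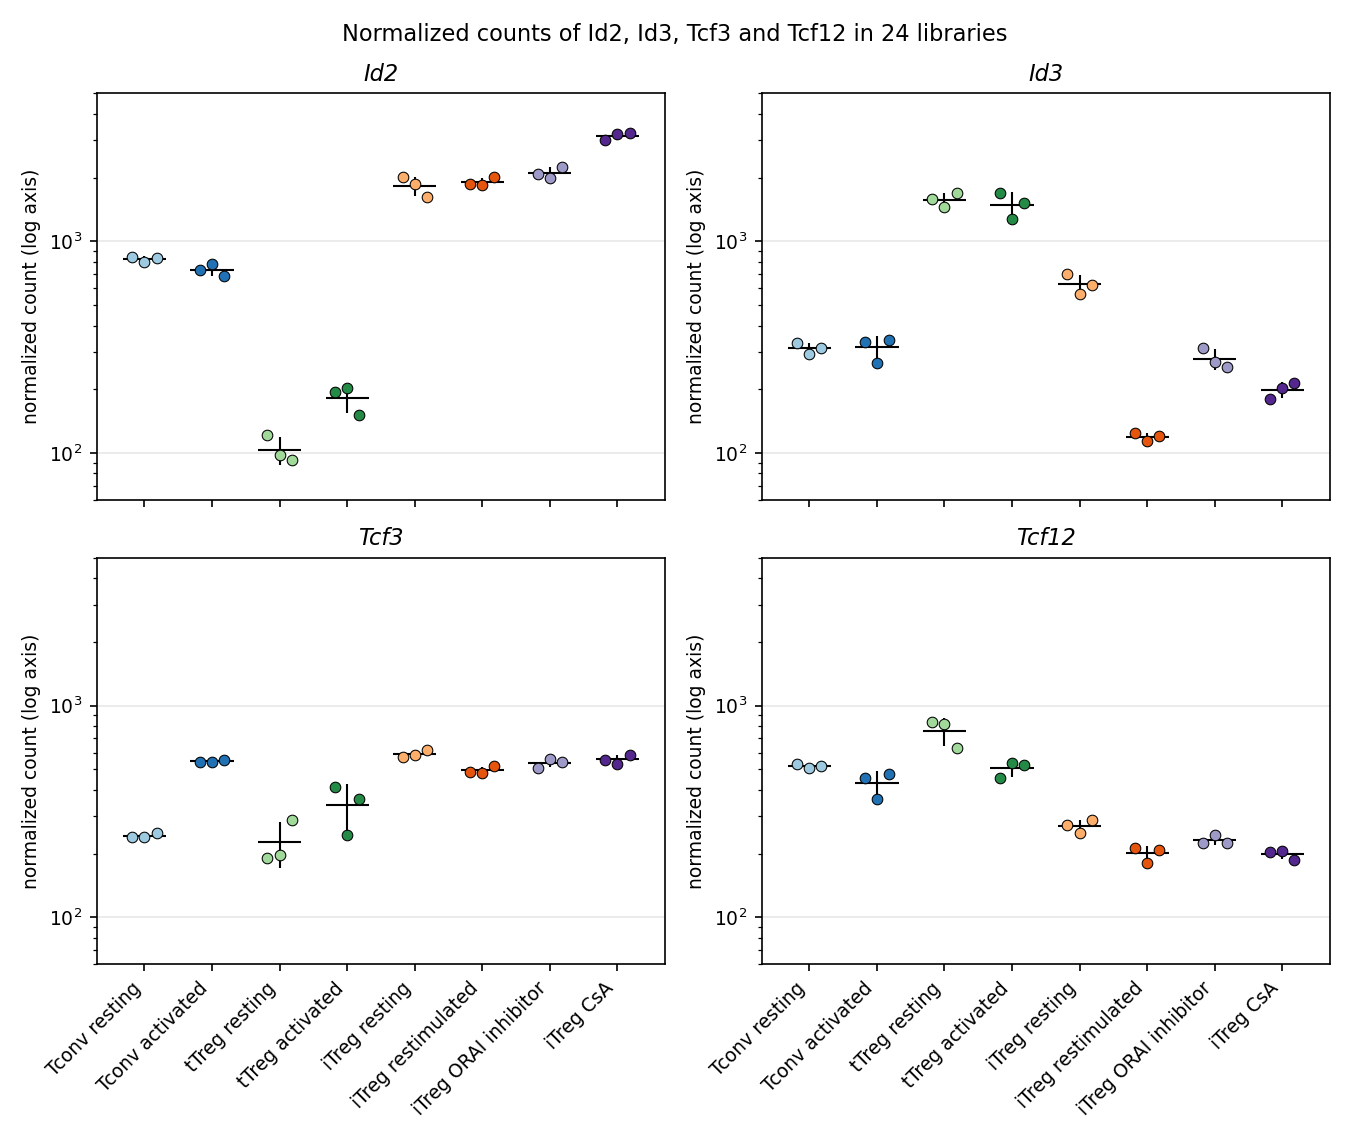
Normalized counts (log axis) of the 4 genes in each of the 24 libraries, by group. Points are libraries, horizontal lines group means and vertical lines 1 SD either side of the mean (n = 3); Id2 is lowest and Id3 highest in the 6 tTreg libraries, while Id3 is lowest in restimulated iTreg.

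Id2 fell into separate levels by cell type. In resting tTreg it stood at 122, 97.3 and 92.3 normalized counts, and in activated tTreg at 194, 202 and 151. In activated Tconv the 3 libraries had 729, 785 and 686, and in resting Tconv 845, 800.1 and 831. Every Tconv library was thus above every tTreg library. Resting iTreg had 2007, 1861 and 1621, restimulated iTreg 1868, 1850.2 and 2012, and iTreg with the ORAI inhibitor 2088, 2003 and 2252. These 3 iTreg groups overlapped with their neighbours in the order. iTreg with CsA, at 3001, 3205 and 3249, stood above all other libraries.

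Id3 ran in another order. It was highest in resting tTreg (1579, 1447 and 1687) and activated tTreg (1698, 1269 and 1513), and these groups overlapped. Resting iTreg followed with 699.8, 561 and 618. Resting Tconv (330.1, 293 and 313) and activated Tconv (336, 267 and 342) were nearly identical in mean. Below them, iTreg with the ORAI inhibitor (312, 268 and 254) overlapped with resting Tconv, and iTreg with CsA had 179.9, 202 and 214. Restimulated iTreg, with 124, 113 and 119.9, held the 3 lowest values of all libraries.

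Tcf3, the E2A gene, separated resting from activated Tconv and varied less among the iTreg groups. Resting Tconv had 241, 239 and 249 normalized counts, and activated Tconv 544, 543 and 553. Resting tTreg had 190.5, 197 and 289, and activated tTreg 413, 244 and 363, so that the tTreg groups overlapped with each other and with resting Tconv. Across the 12 iTreg libraries Tcf3 lay between 482 (a restimulated library) and 615 (a resting library). The restimulated libraries (487, 482 and 517) were all below the resting ones (571, 587 and 615), while every neighbouring pair of groups from restimulated iTreg upward overlapped, activated Tconv included.

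Tcf12, the HEB gene, ran opposite to Tcf3 between resting T cells and iTreg. Resting tTreg had 835, 821 and 629.9, and resting Tconv 531, 505 and 517. Activated tTreg had 455, 538 and 525, and activated Tconv 457, 364 and 473. The activated groups overlapped with each other, and activated tTreg also with resting Tconv. In the 12 iTreg libraries Tcf12 lay between 180.4 (restimulated) and 287 (resting), below every other library.

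Resting tTreg and Tconv were compared to ask how the thymus-derived regulatory cells differ from conventional cells before stimulation. Id2 was 7.95-fold lower in resting tTreg (log2 fold change -2.99 ± 0.13 SE, limma adjusted p = 7.69e-11) and Id3 5.02-fold higher (2.33 ± 0.13, limma adjusted p = 9.33e-10). Tcf12 was 1.46-fold higher (0.55 ± 0.12, limma adjusted p = 0.00199), and Tcf3 gave -0.13 (95% confidence interval -0.50 to 0.24, limma adjusted p = 0.548). The 2 Id genes thus moved in opposite directions, with no overlap between libraries, as was so for 58.5% of all genes tested. Of the 4 genes, 3 were called, where 38.6% of the 11495 genes tested were. By absolute change Id2 ranked 414 and Id3 679 among those genes. The Tcf12 call sits at the fold threshold: without resting tTreg replicate 1 or replicate 2 the log2 fold change was 0.47 or 0.49, and over all alternatives the adjusted p ran from 0.000131 to 0.0115.

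After activation the separation of the 2 Id genes persisted. In activated tTreg, Id2 was 4.04-fold lower than in activated Tconv (log2 fold change -2.01 ± 0.13 SE, limma adjusted p = 7.53e-09) and Id3 4.72-fold higher (2.24 ± 0.13, limma adjusted p = 1.92e-09). Tcf3 was 1.64-fold lower (-0.72 ± 0.17, limma adjusted p = 0.00237), a call that was lost without activated tTreg replicate 2, the lowest library for Tcf3 in its group (-0.49). Tcf12 gave 0.24 (limma adjusted p = 0.117). In this comparison 3 of 4 genes were called, against 48.2% of all genes tested.

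Activation of Tconv changed Tcf3, while the changes of the other members stayed below the fold threshold. Tcf3 rose 2.24-fold (log2 fold change 1.17 ± 0.17 SE, limma adjusted p = 3.39e-05). Id2 gave -0.17 (95% confidence interval -0.45 to 0.10) and Id3 0.01 (-0.26 to 0.27), with limma adjusted p = 0.259 and 0.966. Tcf12 gave -0.27 (limma adjusted p = 0.0729). Hence 1 of 4 genes was called where 50.2% of 11495 genes were. Id2 was 686 to 785 normalized counts in activated and 800.1 to 845 in resting libraries, and Tcf12 364 to 473 and 505 to 531, without overlap. The share of all genes without overlap was not computed here. Over all alternatives (limma, edgeR and DESeq2) the adjusted p ran from 0.0264 to 0.493 for Id2 and from 0.0209 to 0.325 for Tcf12.

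On activation of tTreg, Id2, Tcf12 and, less stably, Tcf3 were called. Id2 rose 1.75-fold (log2 fold change 0.80 ± 0.13 SE, limma adjusted p = 0.000296), from a level that stayed below every Tconv library, and Tcf12 fell (-0.58 ± 0.12, limma adjusted p = 0.00264). Id3 gave -0.08 (95% confidence interval -0.35 to 0.19, limma adjusted p = 0.652). Tcf3 was called higher at 0.58 ± 0.17 (limma adjusted p = 0.0178), but its libraries overlapped between the groups. That call was lost in a fit of the 2 groups alone (limma adjusted p = 0.122) and without activated tTreg replicate 1 or 3 or resting tTreg replicate 1 or 2, and its adjusted p ran from 0.000838 to 0.122 over all alternatives. With it, 3 of 4 genes were called against 21.9% of all genes tested. Tested directly, the activation response of Tconv minus that of tTreg was -0.98 ± 0.18 for Id2 (limma adjusted p = 0.000628). It was 0.58 ± 0.24 for Tcf3 (limma adjusted p = 0.0724, from 0.0236 to 0.167 over the alternatives), 0.31 for Tcf12 (limma adjusted p = 0.182) and 0.09 for Id3 (limma adjusted p = 0.73). So 1 of 4 genes was called for the difference in response, where 34.7% of all genes were.

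Resting iTreg were compared with Tconv and tTreg to ask how the induced cells differ from conventional and from thymus-derived regulatory cells. Against resting Tconv, all 4 genes were called, as were 63.6% of all genes tested. Id2 was 2.21-fold higher (log2 fold change 1.14 ± 0.13 SE, limma adjusted p = 1.11e-06), Id3 2.00-fold higher (1.00 ± 0.13, limma adjusted p = 3.72e-06) and Tcf3 2.43-fold higher (1.28 ± 0.17, limma adjusted p = 8.34e-06). Tcf12 was 1.92-fold lower (-0.94 ± 0.12, limma adjusted p = 7.03e-06). Both Id genes and Tcf3 were thus above, and Tcf12 below, their Tconv levels. Against activated Tconv, Id2 (1.31), Id3 (0.99) and Tcf12 (-0.67) were called, with limma adjusted p from 6.43e-07 to 0.000375, and Tcf3 gave 0.11 (95% confidence interval -0.26 to 0.48). This was 3 of 4 genes against a background of 41.6%.

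Against resting tTreg, Id2 was 17.5-fold higher in resting iTreg (log2 fold change 4.13 ± 0.13 SE, limma adjusted p = 1.20e-12), the largest difference of a member in the 18 comparisons made. Id3 was 2.51-fold lower (-1.33 ± 0.13, limma adjusted p = 1.80e-07), Tcf3 2.66-fold higher (1.41 ± 0.17, limma adjusted p = 3.15e-06) and Tcf12 2.80-fold lower (-1.48 ± 0.12, limma adjusted p = 5.21e-08). Induced and thymus-derived cells thus differed in both Id genes and both E protein genes, each pair in opposite directions. All 4 genes were called, where 63.4% of all genes were. Under quantile normalization the median of all genes moved by -0.14 to -0.12 in the comparisons of resting iTreg with the 3 other groups, and no member call changed.

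**Figure D2:**
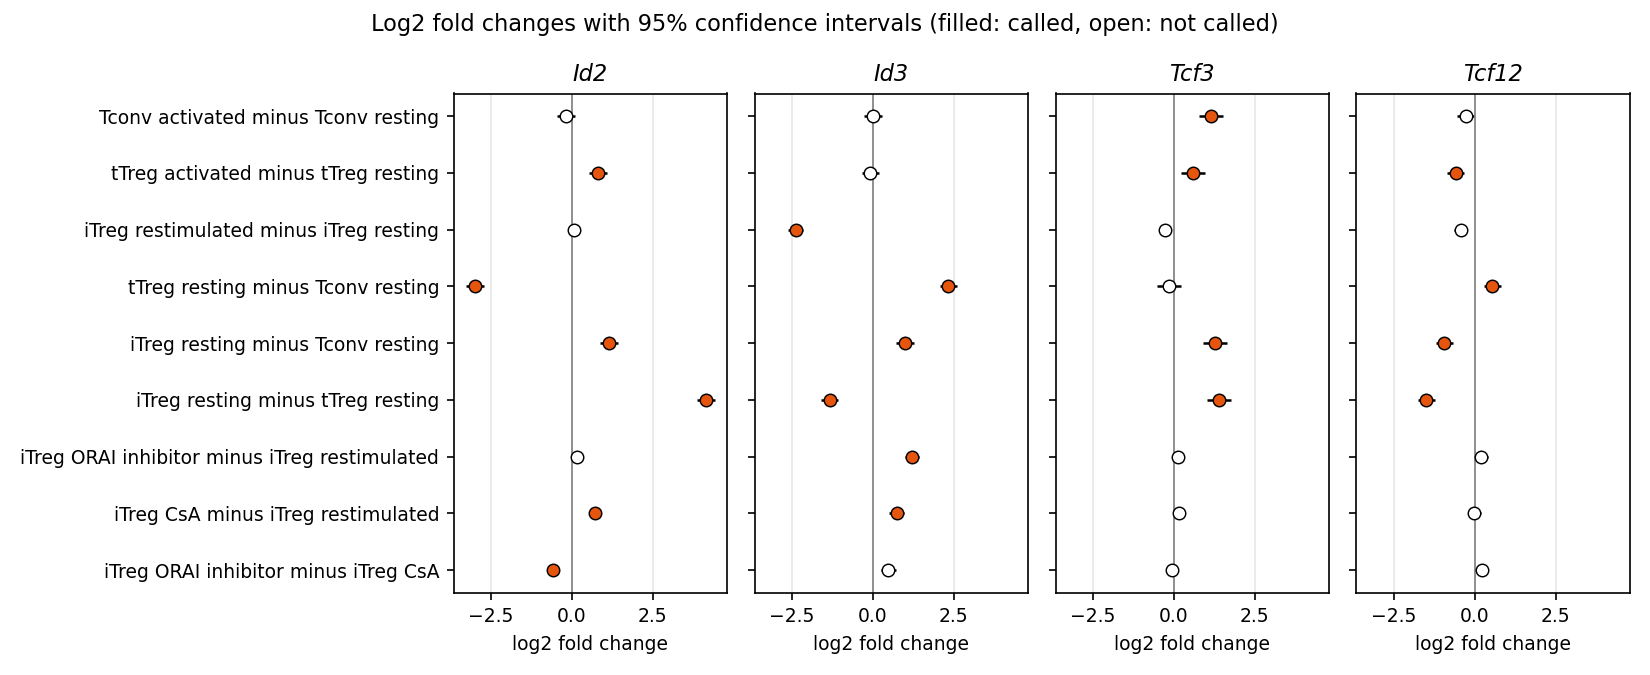
Log2 fold changes of the 4 genes (points) with 95% confidence intervals (lines) in 9 comparisons, from limma fits on log2(normalized count + 1). Filled points were called; Id3 is called in the restimulation of iTreg (-2.38) and in both comparisons of an inhibitor with restimulated iTreg, and Id2 and Id3 lie on opposite sides of 0 in both comparisons with resting tTreg.

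Restimulation of resting iTreg was profiled to ask what renewed receptor signalling does to induced cells. Id3 fell 5.21-fold (log2 fold change -2.38 ± 0.11 SE, limma adjusted p = 1.11e-09), from 561 to 699.8 normalized counts in resting libraries to 113 to 124 in restimulated ones. By absolute change it ranked 44 among 11105 genes tested. Id2 gave 0.07 (95% confidence interval -0.09 to 0.23, limma adjusted p = 0.547). Both E protein genes were lower by less than the fold threshold, Tcf12 at -0.43 ± 0.09 (limma adjusted p = 0.00306) and Tcf3 at -0.25 ± 0.07 (limma adjusted p = 0.0115), without overlap between libraries, as was so for 40.8% of all genes. So 1 of 4 genes was called, and 12.8% of all genes were.

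The fall of Id3 on restimulation was tested against the responses of the other cells in a fit of all 24 libraries. The iTreg response minus the Tconv response was -2.39 ± 0.17 for Id3 (limma adjusted p = 1.45e-10) and -1.42 ± 0.21 for Tcf3 (limma adjusted p = 6.04e-06). For Id2 it was 0.24 (limma adjusted p = 0.2) and for Tcf12 -0.16 (limma adjusted p = 0.43), so 2 of 4 genes were called against 44.2% of all genes. The iTreg response minus the tTreg response was -2.30 ± 0.17 for Id3 (limma adjusted p = 3.42e-09), -0.84 ± 0.21 for Tcf3 (limma adjusted p = 0.00434) and -0.74 ± 0.15 for Id2 (limma adjusted p = 0.000994). This was 3 of 4 genes against 21.3% of all genes. The 2 response comparisons share the iTreg libraries. The iTreg had already been stimulated once during induction, and the stimulations of the 3 cell types may differ in length, which cannot be told apart from cell type.

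In the stimulated state, restimulated iTreg were compared with activated Tconv and activated tTreg. Against activated Tconv, Id2 was 2.60-fold higher (log2 fold change 1.38 ± 0.11 SE, limma adjusted p = 3.62e-10), Id3 2.62-fold lower (-1.39 ± 0.12, limma adjusted p = 1.68e-09) and Tcf12 2.14-fold lower (-1.10 ± 0.11, limma adjusted p = 3.22e-08). Tcf3 gave -0.14 (limma adjusted p = 0.417), and 3 of 4 genes were called against 44.3% of all genes. Against activated tTreg, Id2 was 10.5-fold higher (3.39 ± 0.11, limma adjusted p = 8.91e-17) and Id3 12.4-fold lower (-3.63 ± 0.12, limma adjusted p = 1.58e-16). Tcf12 was 2.52-fold lower (-1.33 ± 0.11, limma adjusted p = 8.88e-10) and Tcf3 1.49-fold higher (0.57 ± 0.15, limma adjusted p = 0.00137), the last without a call when activated tTreg replicate 2 was left out (0.35). All 4 genes were called, where 59.3% of all genes were. Id3, which resting iTreg had held above Tconv, was below Tconv after restimulation, while Id2 stayed above it in both states.

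The inhibitor groups were profiled to ask how much of the restimulation response needs calcium entry or calcineurin. With the ORAI inhibitor, Id3 was 2.32-fold higher than in restimulated iTreg (log2 fold change 1.21 ± 0.11 SE, limma adjusted p = 6.73e-06) and ranked 91 among 11105 genes by absolute change. Id2 gave 0.15 (95% confidence interval -0.01 to 0.31), Tcf3 0.12 (-0.03 to 0.27) and Tcf12 0.21 (0.01 to 0.41), with limma adjusted p of 0.297, 0.363 and 0.225. Thus 1 of 4 genes was called where 3.3% of all genes were.

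With CsA, both Id genes were higher than in restimulated iTreg. Id2 rose 1.65-fold (log2 fold change 0.72 ± 0.07 SE, limma adjusted p = 4.44e-05) and Id3 1.66-fold (0.73 ± 0.11, limma adjusted p = 0.000677). Tcf3 gave 0.17 (limma adjusted p = 0.154) and Tcf12 -0.01 (limma adjusted p = 0.968). This was 2 of 4 genes against 2.92% of all genes. The 2 inhibitor comparisons share the restimulated libraries.

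Set against each other, the inhibitors differed in Id2 and were not separated by the test in Id3. Id2 was 1.49-fold lower with the ORAI inhibitor than with CsA (log2 fold change -0.58 ± 0.07 SE, limma adjusted p = 0.00102), with libraries at 2003 to 2252 and 3001 to 3249. Id3 gave 0.48 (95% confidence interval 0.25 to 0.71, limma adjusted p = 0.0552), and its libraries, 254 to 312 and 179.9 to 214, did not overlap, as was so for 19.2% of all genes. Over all alternatives the adjusted p for Id3 ran from 0.0251 to 0.233. Tcf3 gave -0.05 and Tcf12 0.22, with limma adjusted p of 0.839 and 0.407. So 1 of 4 genes was called, and 0.36% of all genes were, that is 40 genes, which became 10 in a single fit of all 24 libraries and 26 without CsA replicate 1. The doses are not given, so the comparison is of these libraries and not of matched doses.

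Neither inhibitor group had Id3 at its resting level. Id3 was 2.25-fold lower with the ORAI inhibitor than in resting iTreg (log2 fold change -1.17 ± 0.11 SE, limma adjusted p = 3.11e-06), where 1 of 4 genes and 7.1% of all genes were called. With CsA it was 3.14-fold lower (-1.65 ± 0.11, limma adjusted p = 6.21e-08), and Id2 was 1.73-fold above its resting level (0.79 ± 0.07, limma adjusted p = 3.19e-06). Here 2 of 4 genes and 9.43% of all genes were called. Against resting iTreg, Tcf12 gave -0.22 with the ORAI inhibitor and -0.44 with CsA (limma adjusted p = 0.117 and 0.00352). Tcf3 gave -0.14 and -0.09 (limma adjusted p = 0.195 and 0.394). None of them was called, Tcf12 with CsA only because its change was below the fold threshold. These comparisons share the resting iTreg libraries.

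To set the 4 genes on a common scale, normalized counts were divided by each gene's exon length in kilobases (2438 exon bases for Id2, 1791 for Id3, 4039 for Tcf3 and 15529 for Tcf12). These are levels per kb, and their ratios are descriptions with no test. Id3 made up 95.3% ± 0.747 (SD, n = 3) of the summed Id2 and Id3 level in resting tTreg and 91.6% ± 1.89 in activated tTreg. In resting Tconv, activated Tconv and resting iTreg its share was 34.0% ± 0.732, 36.9% ± 4.60 and 31.8% ± 2.56, so these 3 groups had like shares at different totals. Restimulated iTreg had 7.88% ± 0.406, iTreg with the ORAI inhibitor 15.2% ± 1.82 and iTreg with CsA 7.93% ± 0.346. The share of Id3 with CsA was thus close to that without inhibitor, with both the Id3 and the Id2 level higher. Only in tTreg was Id3 above Id2, in all 6 libraries.

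**Figure D3:**
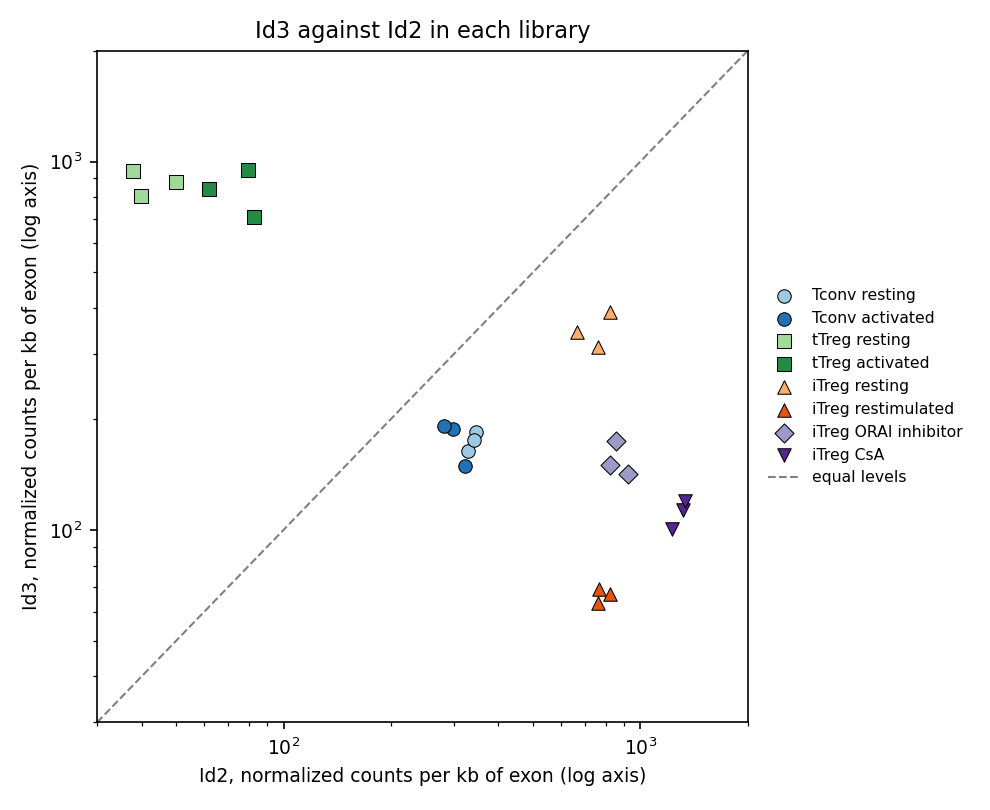
Id3 against Id2 in normalized counts per kb of exon (both axes log) for the 24 libraries, with a dashed line of equal levels. The 6 tTreg libraries lie above the line and the other 18 below it, and restimulated iTreg lie straight below resting iTreg, at a like Id2 level.

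The summed level of both Id genes was lowest in Tconv, at 514 ± 19.9 per kb (SD, n = 3) resting and 478 ± 8.46 activated. It was 921 ± 66.8 in resting tTreg and 909 ± 118 in activated tTreg, where Id3 made up most of it. In resting, restimulated, ORAI inhibitor and CsA iTreg it was 1101 ± 104, 851 ± 37.1, 1023 ± 47.3 and 1405 ± 63.9, and there Id2 made up most of it. Tconv stayed lowest and CsA iTreg highest with the longest transcript or without division by length, but restimulated iTreg, below tTreg here, were above them without division by length (2031 against 1677 in each tTreg group).

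The summed level of Tcf3 and Tcf12 ranged less, from 93.8 ± 1.66 per kb (SD, n = 3) in resting Tconv to 164 ± 6.12 in resting iTreg, with activated Tconv at 163 ± 4.86. Resting and activated tTreg had 105 ± 6.29 and 117 ± 19.2. The order of these sums depends on the length used: with the longest transcript activated Tconv was highest (254, against 244 in resting iTreg), and without division by length resting tTreg was highest (990, against 863 in resting iTreg) and restimulated iTreg lowest (698). Tcf12 made up 47.1% ± 9.50 of it in resting tTreg, 35.6% ± 0.725 in resting Tconv, 28.7% ± 7.17 in activated tTreg and 17.0% ± 1.86 in activated Tconv. In the 4 iTreg groups its share was 8.53% to 10.6%. The share was lower in activated than in resting Tconv in every library, while the tTreg groups overlapped. Tcf12 has 15529 annotated exon bases but a longest transcript of 6299: with the longest transcript of each gene as its length the Tcf12 shares were higher, 61.2% in resting tTreg and 14.4% in iTreg with CsA, in the same order at the ends.

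The summed E protein level holds Tcf3 and Tcf12 only, and other E protein genes were not examined. The ratio of the summed Id2 and Id3 level to it was lowest in activated Tconv (2.93 ± 0.0872, SD, n = 3) and highest in iTreg with CsA (9.31 ± 0.469). Resting Tconv had 5.48 ± 0.159, above all activated Tconv libraries. Resting and activated tTreg had 8.75 ± 0.449 and 7.80 ± 0.493, and resting, restimulated and ORAI inhibitor iTreg had 6.73 ± 0.857, 6.26 ± 0.0450 and 6.91 ± 0.564. The last 3 groups overlapped, so the fall of Id3 on restimulation came with no separation of this ratio. Activated Tconv stayed lowest and CsA iTreg highest whether exon length, longest transcript or no length was used, but without division by length the tTreg groups (mean log2 ratio 0.76 resting, 0.98 activated) fell below all iTreg groups (1.51 to 2.15), so the order of tTreg and iTreg depends on the length used.

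**Figure D4:**
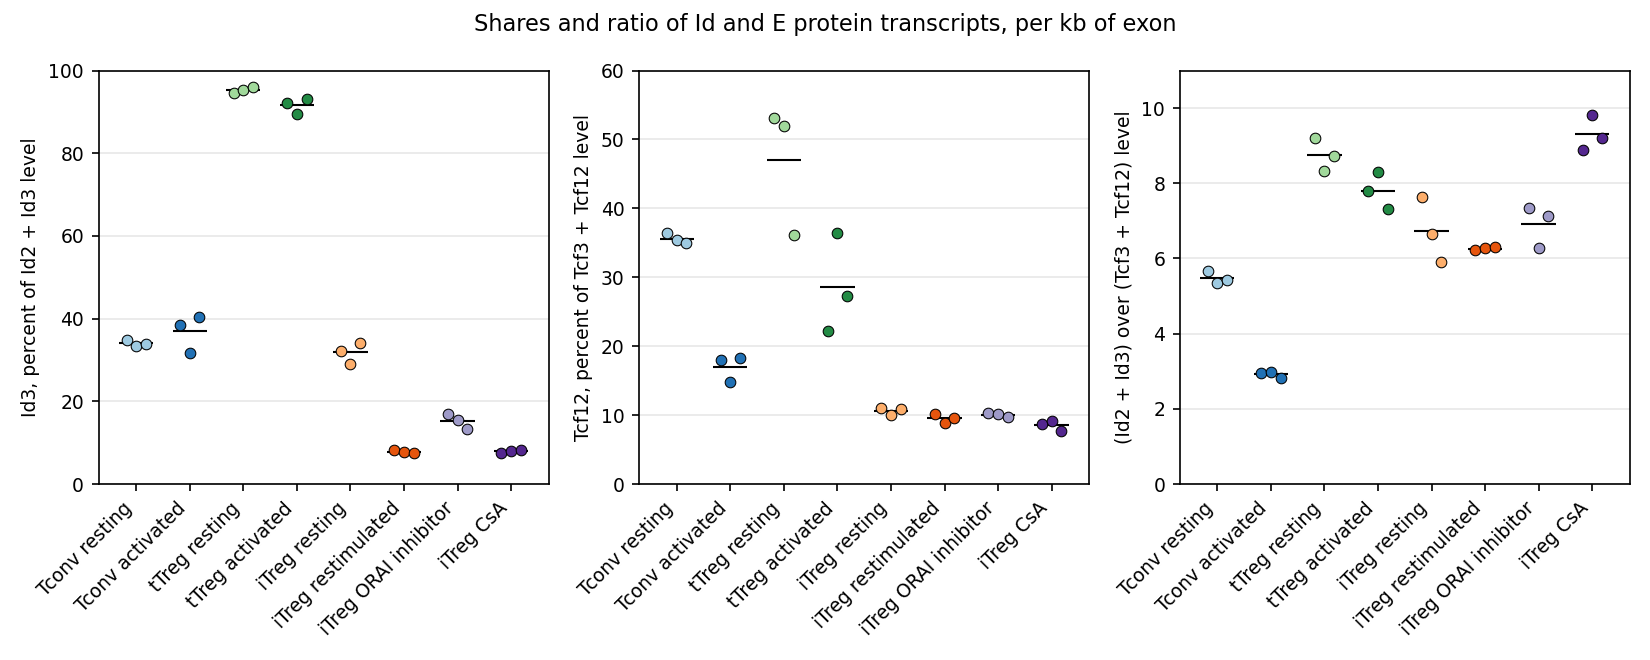
Share of Id3 in the summed Id2 and Id3 level, share of Tcf12 in the summed Tcf3 and Tcf12 level (both in percent) and the ratio of the 2 sums, per kb of exon, in each library by group. Points are libraries and lines group means; the Id3 share is at least 89.5% in the 6 tTreg libraries and at most 8.34% in restimulated and CsA iTreg, while the ratio of sums is lowest in activated Tconv.

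Across the 24 libraries, which share the 8 groups and are described here without a test, log2 levels of Id2 and Id3 had a Pearson r of -0.84, Id2 and Tcf12 -0.90, Tcf3 and Tcf12 -0.82, Id3 and Tcf12 0.75, Id2 and Tcf3 0.74, and Id3 and Tcf3 -0.52. These values describe the set of libraries and do not hold group by group: in activated Tconv Tcf3 was near its highest level and Id2 below its resting Tconv mean, and resting iTreg ranked high for Id3 and low for Tcf12. Among the 8313 genes with a mean of at least 100 normalized counts, the 3 most like Id2 were Lpcat3 (r = 0.99), Cox4i1 (0.99) and Myl12a (0.98), which, like Id2, were lowest in resting tTreg and highest in iTreg with CsA. For Id3 they were Cd37 (0.95), Tgfbr1 (0.94), a receptor of TGF-β, and Herpud1 (0.93), all lowest in restimulated iTreg and highest in activated tTreg. For Tcf3 they were Mcm2 (0.97), Snrpf (0.97) and Pola2 (0.96), of which Mcm2 and Pola2 take part in DNA replication. For Tcf12 they were Elk4, Inpp4b and Dock10 (0.99, 0.99 and 0.98), all highest in resting tTreg.

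The wider family was described through 4 gene lists. Their counts of called genes stand beside the share of all genes called in the same comparison, and a list count near that share says nothing particular about the list. The list of family members and partners holds the other Id genes, basic helix-loop-helix and LIM partners and E protein cofactors, 13 genes in all. Id4 had at most 0.735 normalized counts as a group mean. Id1 averaged 2.87 in resting Tconv, 22.6 in activated Tconv, 46.7 in resting iTreg and 17.6 in restimulated iTreg, so that Id2 and Id3 made up nearly all Id transcript. On iTreg restimulation 2 of 6 tested genes of this list were called, both lower, Id1 (log2 fold change -1.38) and Lyl1 (-1.07), a partner of E proteins (limma adjusted p = 0.000328 and 0.0061), with a median of -0.15 in the list and -0.01 over all genes, of which 12.8% were called. Id1 thus moved in the direction of Id3. With either inhibitor 0 of 6 were called by limma, edgeR or DESeq2, where limma called 3.3% (ORAI inhibitor) and 2.92% (CsA) of all genes. At an unadjusted limma p below 0.05 there were 3 (ORAI inhibitor) and 0 (CsA). The share of all genes at that unadjusted p was not computed, so these counts say nothing particular about the list. In resting iTreg against resting tTreg 5 of 7 were called, against 63.4% of all genes (median -0.44, all genes 0.02), Id1 (2.81) and Lyl1 (2.39) higher and the coactivators Crebbp (-1.21) and Ep300 (-0.86) among the lower.

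The turnover list held 4 genes whose products are known to act on the stability of Id or E proteins: Usp1, a deubiquitinase of Id proteins; Fzr1, an activator of the anaphase-promoting ubiquitin ligase; and Asb2 and Skp2, ubiquitin ligase subunits linked to E protein decay. In resting iTreg against resting tTreg all 4 were called higher, Asb2 at 4.16, Fzr1 at 1.75, Usp1 at 1.62 and Skp2 at 1.29 (limma adjusted p at most 4.55e-05), with a list median of 1.68 against 0.02, where 63.4% of all genes were called in either direction. This was not particular to tTreg. All 4 were also called higher in resting iTreg against resting Tconv (median 1.65, 63.6% of all genes called) and against activated Tconv (median 1.31, 41.6%). On restimulation Asb2 rose (1.52, limma adjusted p = 1.29e-08) and Usp1 fell (-0.73, limma adjusted p = 4.11e-05), so 2 of 4 were called against 12.8% of all genes, and the list median was -0.23. Asb2 was lower again with the ORAI inhibitor (-0.54) and with CsA (-0.60), each 1 of 4 called against 3.3% and 2.92% of all genes. On Tconv activation 1 of 4 was called, Usp1 (0.65), against 50.2%.

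The list of 20 genes linked to E protein or Id3 activity in lymphocytes had 16 members tested among the sorted cells and 15 in iTreg. On Tconv activation 14 of 16 were called, 6 higher and 8 lower, against 50.2% of all genes (median -0.82, all genes -0.04), Il7r (-4.99) and Dntt (-4.35) falling and Cdk6 (4.27) and Cdkn1a (3.94) rising. On tTreg activation 7 of 16 were called, 2 higher and 5 lower, against 21.9% (median -0.49), Cdkn1a (1.58) among the higher. In resting tTreg against resting Tconv 11 of 16 were called, 7 higher and 4 lower, against 38.6% (median 0.44, all genes -0.02), with Il7r at -3.75 and Cdk6 at 3.42. In resting iTreg against resting tTreg 12 of 16 were called, 6 in each direction, against 63.4%, with Cdkn1a (4.37) and Cxcr5 (-4.39) at the extremes named. The list had no common direction in these comparisons. On iTreg restimulation, where Id3 fell, 2 of 15 were called, 1 in each direction, against 12.8%, and Il7r, the IL-7 receptor gene, was the lower (-0.70). Cxcr4 (-0.68) was the 1 of 15 called with the ORAI inhibitor and Il7r (0.62) the 1 called with CsA, against 3.3% and 2.92% of all genes.

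The list of signals known upstream of Id genes held 13 genes, of which 12 were tested in each comparison. In resting tTreg against resting Tconv 8 were called, 6 higher and 2 lower, against 38.6% of all genes (median 0.60), Il2ra (7.37), which the Treg marker list also holds, Stat5a (1.98) and Bmpr2 (1.70) higher and Tgfbr2 (-1.50) lower. On Tconv activation 10 were called, 4 higher and 6 lower, against 50.2% (median -0.29), among them Il2ra (6.74) and Egr2 (3.50), an early growth response factor. In resting iTreg against resting tTreg 11 were called, 4 higher and 7 lower, against 63.4% (median -0.71). On iTreg restimulation 3 were called, against 12.8%: the TGF-β receptor genes Tgfbr1 (-0.75) and Tgfbr2 (-0.59) fell with Id3, and Zeb2 (1.19) rose (median -0.17). Egr2 and Zeb2 were lower with the ORAI inhibitor (-1.06 and -0.61) and with CsA (-1.21 and -0.78), 2 of 12 called in each against 3.3% and 2.92%. In these inhibitor comparisons Id3 was called higher, while 0 of the 12 genes were, Tgfbr1 and Tgfbr2 included. Egr2 was not among the 3 genes called on restimulation.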

How the data were processed

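SMART-seq2 RNA-seq libraries (24, in 8 groups of 3) were analysed from the table of gene values deposited by the authors. According to the study's methods and the submitters' notes, reads were trimmed (cutadapt 1.18), aligned to mm10 (STAR 2.5.3) and counted per gene (RSEM 1.3.0, GENCODE annotation of GRCm38), and DESeq2 1.26 was used. The deposited signal values are gene counts divided by 1 size factor per library: within 0.01, 100% of values above 0 were whole multiples of a step per library, and reads were recovered from these steps. Genes reaching 10 normalized counts in 3 or more libraries were fitted with limma 3.58.1 (R 4.3.3) on log2(normalized count + 1), with p-values adjusted by Benjamini-Hochberg over all genes tested. The fits used 15 libraries (Tconv, tTreg and resting iTreg), 12 libraries (iTreg) and all 24. In 18 comparisons the 4 members gave 72 tests. Genes were called as the study did, at 0.05 for the adjusted p and 0.5 for the size of the log2 fold change. Confidence intervals are 95%. The fits were also run on simulated data that had the same spread for all genes and groups. That simulation does not cover the unlike spread of the groups here. Recovered reads were also tested with edgeR 4.0.16 and DESeq2 1.42.0. Replicate pairs differed by more than sampling noise (chi-square per gene 2.69 to 36.3 over 24 pairs), so none was a copy. The tTreg replicates were the least alike (12.7 to 36.3), against 3.01 to 9.35 in Tconv and 2.69 to 16.4 in iTreg. Standard errors and p-values of tTreg comparisons pool this spread with that of the tighter groups in the same fit. Exon lengths came from a GENCODE annotation of GRCm38, which need not be the release the authors used, and start-site windows from RefSeq (GRCm38.p6). Named list genes were at most 4 per list and comparison, from those of largest absolute change among the called; some with group means near 0 were left unnamed after their values were seen. The members and lists were chosen with earlier results of these data known. Some list and marker genes are not reported here.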

Additional observations from a re-analysis of the deposited data

Results flagged for a closer look

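Of the 4 genes, 3 were called in at least 1 test of a difference in response between cell types (limma, adjusted p below 0.05). Over all genes tested, 34.7% were called for Tconv minus tTreg, 44.2% for iTreg minus Tconv and 21.3% for iTreg minus tTreg. The share of all genes called in any of these tests was not computed. For Id2 the activation response of Tconv minus that of tTreg was -0.98 on the log2 scale, as Id2 rose in tTreg (0.80) and gave -0.17 in Tconv. For Id3 the iTreg restimulation response minus the Tconv activation response was -2.39, and minus the tTreg activation response -2.30. Id3 was lower in all 3 restimulated than in all 3 resting iTreg libraries, and 40.8% of all genes had no overlap between these groups. For Tcf3 the same differences were -1.42 and -0.84, since Tcf3 rose on Tconv activation and was -0.25 on iTreg restimulation. For Id2 the iTreg response minus the tTreg response was -0.74. In the differences with iTreg, the prior culture of iTreg cannot be told apart from cell type, and the lengths of stimulation are not given in the sources used here.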

How the results depend on the processing

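Of 1280 member results under alternatives, 1266 kept direction and side of the threshold, 9 lost a call, 5 gained one and 0 reversed; 67 of 72 member results kept both under every alternative. The 9 and 5 concern Tcf3 and Tcf12 in comparisons with tTreg. For the activation response of Tconv minus tTreg, 2 members were called in place of 1 with TMM factors, with DESeq2 and with all 24 libraries in a single fit (Tcf3 at 0.67, 0.62 and 0.58), and 1 to 2 when libraries were left out in turn, 2 without activated or without resting tTreg replicate 1. A filter of 100 normalized counts, which tests fewer genes, gave 878 called genes in place of 1425 for restimulated against resting iTreg, 213 in place of 324 for CsA against restimulated, 479 in place of 789 for ORAI inhibitor against resting and 654 in place of 1047 for CsA against resting. A single fit of all 24 libraries gave 232 in place of 366 for ORAI inhibitor against restimulated iTreg, 187 in place of 324 for CsA against restimulated and 10 in place of 40 for ORAI inhibitor against CsA; the cause was not tested. The last count was 26 to 30 when libraries were left out in turn. Without division by length, the log2 ratio of Id to E protein level in CsA iTreg minus activated Tconv was 2.04 in place of 1.67. Quantile normalization moved the share of higher calls from 55.1% to 42.5% for resting iTreg against activated Tconv and from 54.9% to 43.7% for restimulated iTreg against activated Tconv. Replicate numbers did not meet the rule set for pairing, as no comparison had every same-numbered correlation above 0.1. In the comparisons within iTreg, same-numbered libraries still correlated more (mean 0.12 to 0.18) than other-numbered ones (mean -0.09 to -0.06). Missing the rule therefore does not show that these samples are unpaired. With the replicate number as a block, 0 of 72 member calls changed, the genes called moved by at most 1.28-fold (51 in place of 40 for ORAI inhibitor against CsA), and Id2 in resting tTreg against resting Tconv stayed at -2.99. Depth was lowest in tTreg, where Id2 rested on as few as 75 reads.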
